A study of Mus musculus with 8 samples.

Results

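The axon guidance ligands and receptors were the genes of the semaphorins, ephrins, Slits and netrins on the ligand side, and of the plexins, neuropilins, Eph receptors, Robos, the Unc5 family and Dcc on the receptor side. They were chosen by gene name among the probes of a mouse expression array, which gave 96 of 55681 probes and 69 genes, 35 for ligands and 34 for receptors. Each array held ribosome-bound RNA from the hippocampus of 1 adult C57BL/6 mouse of at least 3 months. The 4 CKO mice were homozygous for a loxP allele of Ctcf and positive for Camk2a-Cre and for RiboTag. The 4 WT mice were wild type for Ctcf and, like the CKO mice, positive for Camk2a-Cre and for RiboTag, whereas the series' design text describes Ctcf loxP homozygotes without Cre as controls. The sample labels were followed, and each group held 3 males and 1 female.

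RiboTag is an allele by which Cre switches on a haemagglutinin-tagged ribosomal protein, so that an antibody to the tag pulls down ribosomes with their transcripts. The Camk2a promoter drives Cre mainly in excitatory neurons of the forebrain, and Ctcf encodes a zinc finger protein that shapes chromosome loops. Guidance cues steer growing axons by attracting or repelling the growth cone, and in the adult hippocampus several of them act at synapses. Semaphorins signal through plexins, some of them with a neuropilin as co-receptor. Ephrins bind Eph receptor tyrosine kinases on a neighbouring cell, and signals can run in both directions. Slits repel through Robo receptors, and netrins attract through Dcc or repel through Unc5 receptors.

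Signal was scaled by setting log2 of the processed intensity against each array's 75th percentile, and is called normalized log2 signal below. Each difference is CKO minus WT on that scale, so -1 is a halving of signal. Of all probes used, 72.2% (CKO 3) to 81.5% (WT 1) were well above background on an array, and with 4 mice in a group precision is limited by their number. Signal of Ctcf ran from -2.56 to -1.96 in CKO mice, against -1.75 to -1.11 in WT mice, a difference of -0.87 with a standard error (SE) of 0.22 and a limma adjusted p of 0.724. All 6 excitatory neuron markers examined were well above background on all 8 arrays, but so were 5 of 6 astrocyte, 6 of 6 oligodendrocyte and 5 of 6 microglia markers. The arrays lay on 3 slides, with WT 1 alone on slide 1, CKO 1, CKO 2, WT 2 and WT 3 on slide 2, and CKO 3, CKO 4 and WT 4 on slide 3.

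Nearly all of the guidance genes were measured. A gene counted as measured where a probe stood clearly over background on 4 or more of the 8 arrays, which held for 65 of 69 genes, 33 for ligands and 32 for receptors. The others were Ntn3, Ntn4, Epha2 and Robo4. Ntn4 and Epha2 were well above background on 0 arrays, Ntn3 on 1 CKO array and 2 WT arrays, and Robo4 on 1 CKO array and 1 WT array. All 20 semaphorins, 8 ephrins, 3 Slits, 9 plexins and both neuropilins passed. Among the 65 genes, 64 were above background on all 8 arrays. The exception was Sema3d, a secreted semaphorin, which was well above background on 2 CKO arrays and 4 WT arrays. No guidance gene was detected in one genotype and missing in the other.

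The comparison of CKO with WT mice asked whether ribosome-bound transcripts of guidance genes differ with the conditional knockout of Ctcf. None of the 65 genes passed an adjusted p of 0.05 in limma with Benjamini-Hochberg adjustment over all 29529 genes tested. The smallest adjusted p of a guidance gene was 0.724. Over all genes tested 0.00339% passed, which is 1 gene. At an unadjusted p under 0.05 there were 3 of 65 guidance genes, Sema6b with higher signal in CKO mice and Plxnd1 and Ephb4 with lower signal. Over all genes that share was 5.3%, of which 2.5% were higher and 2.8% lower in CKO mice, so the guidance genes were close to the background. The count depended on single arrays, with 0 genes without WT 2 (3.22% of all genes) and 6 without CKO 2 (8.6% of all genes). Scaling mattered too: 2 were higher and 0 lower under median scaling, 4 and 2 under normexp plus quantile normalization, and 4 and 0 in the authors' values. Over all genes 4.85% passed under median scaling, 4.8% in the normexp setting and 4.66% in the authors' values.

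The sizes were also small. The median size of the difference, regardless of sign, was 0.225 over the guidance genes and 0.228 over all genes. A difference larger than 0.5 in size was seen in 4.62% of the guidance genes, namely Ntn1, Robo3 and Plxnd1, and in 13.7% of all genes. The spread between mice of a group was lower for the guidance genes, with a median pooled standard deviation (SD) of 0.279 against 0.336 over all genes. The 2953 dimmest of all genes had a median difference of -0.52, and 1 guidance gene lay among them. The part of dim genes in these comparisons was not tested. In the plot of all 65 differences most error bars cross 0, but they show 1 SE only and are not a test.

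**Figure D1:**
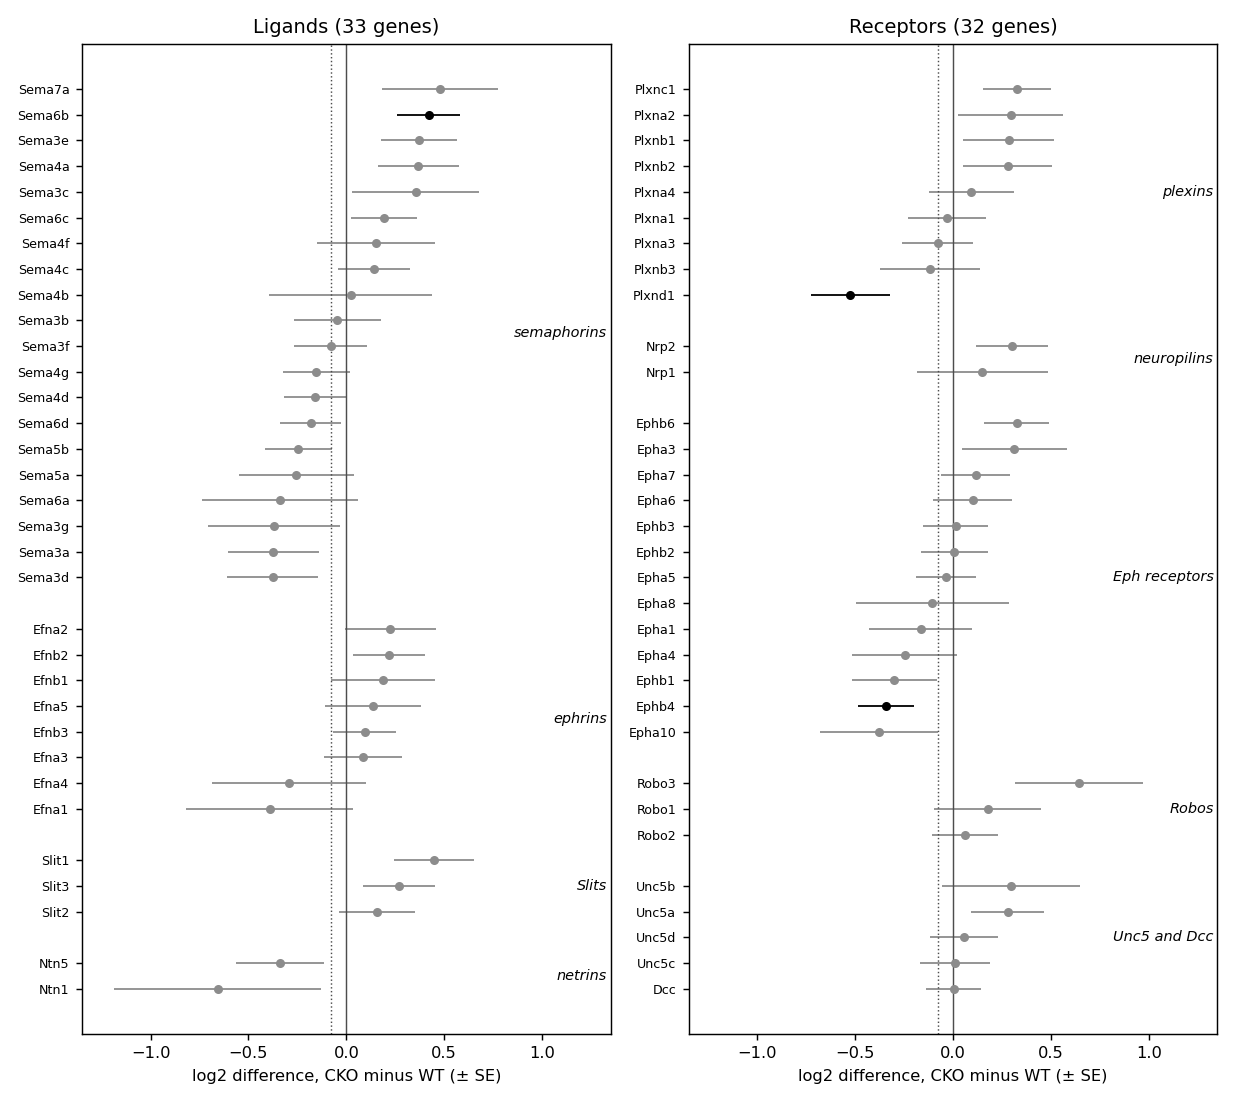
Log2 difference in signal, CKO minus WT, for each of the 33 ligand genes and 32 receptor genes past the filter, grouped by family. Points are limma estimates with bars of 1 SE (4 CKO and 4 WT arrays), black points have an unadjusted p under 0.05, the solid line is 0 and the dotted line the median of all genes. The values run from -0.66 (Ntn1) to 0.64 (Robo3).

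Ligands and receptors each lay on both sides of 0. Among ligands 18 genes lay above 0 and 15 below, with a median difference of 0.084. Among receptors 21 lay above 0 and 11 below, with a median of 0.058. The levels read array by array gave another picture for the receptors. The median normalized log2 signal over the 32 receptor genes ran from -0.40 to -0.23 in the CKO arrays, against -0.17 to 0.04 in the WT arrays. It was lower in every CKO array although the median of the gene differences was above 0. Such a median rests on the few genes in the middle of the list on each array. Those genes were not the same on every array, and whether the receptors as a group had lower signal in CKO mice was not tested. Over the 33 ligand genes the median signal ran from 0.13 to 0.36 in the CKO arrays and from -0.10 to 0.26 in the WT arrays, and the groups overlapped. Taken as one list, 60% of the guidance genes lay above 0, where 41.5% of all genes did and the median over all genes was -0.078. That balance moved with the scaling. With quantile normalization the ligands had 16 above and 17 below 0 and a median of -0.02, the receptors 22 and 10 and a median of 0.05, and 48.6% of all genes lay above 0. Scaling by the median of each array in place of the 75th percentile moved every difference up by the same amount, which took the median of all genes to 0.07, of ligands to 0.23 and of receptors to 0.20.

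Differences followed signal strength over all genes. The median difference was -0.52 in the 2953 dimmest genes and 0.16 in the 2953 brightest, and with quantile normalization these were -0.08 and 0.03. Of the 65 guidance genes, 24 lay among the 8859 brightest genes and 9 among the 8859 dimmest. Without the 4 genes whose probe held a tandem repeat (Sema4c, Ephb3, Epha5 and Sema6d), 20 of 61 lay among the brightest. The part of signal strength in the balance of guidance genes above and below 0 was not tested.

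**Figure D2:**
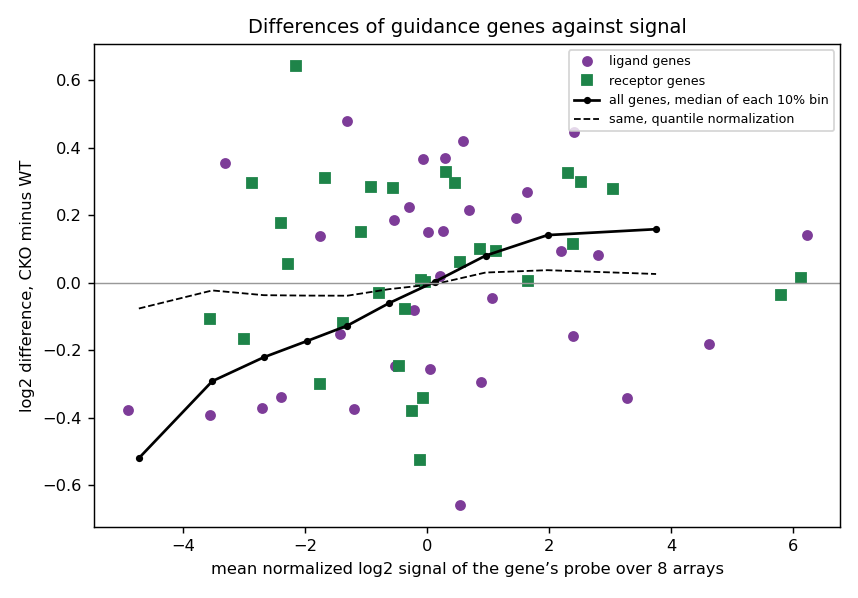
Log2 difference, CKO minus WT, against mean normalized log2 signal over 8 arrays for the 65 guidance genes (circles ligands, squares receptors). The solid line joins the median differences of all genes in 10 equal bins of signal, from -0.52 to 0.16, and the dashed line gives the same medians after quantile normalization, from -0.08 to 0.03.

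The counts were also taken within slides. Within slide 2, with 2 CKO and 2 WT arrays, 36 of the 65 guidance genes lay above 0, where 42.1% of all genes did. The receptors had 20 of 32 genes above 0 and a median of 0.07 there, and the ligands 16 of 33 and a median of -0.01. Within slide 3, with 2 CKO arrays and 1 WT array, 30 of the 65 guidance genes lay above 0, where 49% of all genes did. The receptors had 14 of 32 and a median of -0.03 there, and the ligands 16 of 33 and a median of -0.02. Slide 1 held 1 WT array and gave no difference.

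Semaphorins made up the largest ligand family and went both ways, with 9 of 20 above 0 and a median of -0.06. Sema6b, a transmembrane semaphorin that binds class A plexins, had normalized log2 signals of 0.81, 0.65, 0.88 and 0.85 in CKO mice, against 0.20, 0.29, 0.34 and 0.68 in WT mice. Of the 4 WT mice, 3 lay below every CKO mouse, while WT 4 lay just above CKO 2, so the groups overlapped. The means were 0.80 ± 0.10 in CKO mice and 0.38 ± 0.21 in WT mice (SD, n = 4 each). The difference was 0.42 (SE 0.16, limma unadjusted p = 0.0287, adjusted p = 0.724), or 134% of WT signal. Its probe lies on the minus strand at chr17:56262769-56262828 (mm9). With each array left out the difference ran from 0.36 to 0.52, the highest without WT 4, the mouse nearest the CKO values. Within slide 2 it was 0.42 and within slide 3 it was 0.18.

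Sema3e, a secreted semaphorin that can bind Plxnd1 without a neuropilin, had signals of 0.46, 0.26, 0.91 and 0.27 in CKO mice, against 0.24, -0.10, 0.03 and 0.26 in WT mice. CKO 3 stood highest, and CKO 2 lay within the WT range, at nearly the same value as WT 4. The difference was 0.37 (SE 0.19, limma adjusted p = 0.724). Sema7a, which is anchored in the membrane by a lipid and binds Plxnc1 and integrins, had the highest difference of its family, 0.48 (SE 0.30). It had -1.43, -1.68, -0.25 and -0.93 in CKO mice, against -1.43, -1.83, -1.52 and -1.41 in WT mice. CKO 3 and CKO 4, both on slide 3, lay above all WT mice, and CKO 1 and CKO 2 lay among them.

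At the lower end of the family were 2 secreted semaphorins. Sema3a, a repellent of growth cones that acts through Nrp1 and class A plexins, had -1.23, -1.57, -1.69 and -1.09 in CKO mice, against -1.16, -0.97, -0.53 and -1.43 in WT mice. The groups overlapped, and the difference was -0.37 (SE 0.23, limma adjusted p = 0.724). Within slide 2 it was -0.65 and within slide 3 it was 0.04, the opposite sign. A further, dimmer Sema3a probe gave -0.10.

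Sema3d had -5.78, -4.80, -4.99 and -4.81 in CKO mice, against -4.71, -4.77, -4.62 and -4.78 in WT mice. No CKO mouse reached the lowest WT mouse, but the margin between CKO 2 and WT 4 was small and CKO 1 made up much of the difference. That difference was -0.38 (SE 0.23, limma adjusted p = 0.724), and -0.15 without CKO 1. Sema3d was also among the 2953 dimmest genes, and the sign turned under quantile normalization (0.19), under normexp plus quantile normalization (0.04) and in the authors' deposited values (0.15).

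The other ligand families were smaller. All 3 Slits lay above 0, with a median difference of 0.27, and kept that sign under median scaling, quantile normalization, normexp with quantile normalization and in the authors' values. Slit1 had 2.52, 2.69, 2.95 and 2.32 in CKO mice, against 2.04, 1.97, 2.10 and 2.60 in WT mice. WT 4 lay within the CKO range and the 3 other WT mice below it. The Slit1 difference was 0.45 (SE 0.21, limma adjusted p = 0.724), which was 0.57 within slide 2 and 0.04 within slide 3. Slit3 gave 0.27 (SE 0.19) and Slit2 gave 0.15 (SE 0.19). Slit2 had -0.09 within slide 3.

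Of the 2 netrins measured, both lay below 0 under each of those scalings. Ntn1, the attractant best known from the spinal cord midline, had 0.91, 1.06, -0.82 and -0.32 in CKO mice, against 0.25, 1.29, 1.85 and 0.08 in WT mice. Values of both groups spread over more than 1 on the log2 scale and overlapped widely. The arrays of slide 2 (CKO 1, CKO 2, WT 2 and WT 3) lay above all the others. Ntn1 had the most negative difference of all guidance genes, -0.66, with an SE of 0.53 and an adjusted p of 0.725 in limma. A dimmer Ntn1 probe gave -0.04. With the slide as a block the Ntn1 difference was -0.61 with an unadjusted p of 0.0191 and an adjusted p of 0.754, again in limma, where 6.15% of all genes passed the unadjusted threshold.

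Ntn5 had -2.39, -2.21, -3.05 and -2.63 in CKO mice, against -2.48, -1.97, -2.05 and -2.43 in WT mice, a difference of -0.34 (SE 0.22). The groups overlapped. Ephrins had 6 of 8 genes above 0 and a median of 0.11, but 4 of 8 above 0 with quantile normalization. Their differences ran from -0.39 (SE 0.43) for Efna1, which had the widest spread of the family, to 0.22 (SE 0.23) for Efna2.

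Among receptors, Plxnd1 and Ephb4 had CKO and WT values that did not overlap, both lower in CKO mice. With Sema3d they made 3 of 65 guidance genes without overlap, where 3.32% of all genes had none, 1.96% higher and 1.36% lower in CKO mice. Of these, Sema3d was well above background on only 2 CKO arrays, and its sign turned with the scaling. Plxnd1, a plexin known from blood vessels that binds Sema3e, had -0.12, -0.17, -0.83 and -0.41 in CKO mice, against -0.03, 0.43, 0.05 and 0.12 in WT mice. The margin lay between CKO 1 and WT 1 and was narrow, and CKO 3 stood lowest.

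The Plxnd1 means were -0.38 ± 0.32 in CKO mice and 0.14 ± 0.20 in WT mice (SD, n = 4 each), and the CKO signal was 69.5% of WT. The difference was -0.52 (SE 0.20, limma unadjusted p = 0.0291, adjusted p = 0.724). For Plxnd1 the exact permutation test (two-sided) had p = 0.0286, the smallest that 4 mice against 4 allow. Every gene whose groups do not overlap has this value, Ephb4 and Sema3d too, so it adds nothing to the lack of overlap. The difference was -0.38 within slide 2 and -0.74 within slide 3. It kept its sign with each array left out, from -0.61 to -0.38. However, the 2 Plxnd1 probes did not give the same result. The probe at chr6:115905315-115905374 (mm9, minus strand) gave these values, and a probe of like brightness at chr6:115904829-115904888 gave a difference of 0.03 (SE 0.24). The mean of both probes gave -0.25.

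Ephb4, a receptor tyrosine kinase for Efnb2 that is known from veins, had -0.41, -0.15, -0.26 and -0.17 in CKO mice, against 0.16, 0.12, 0.11 and -0.01 in WT mice. The values within each group lay close together, and WT 4 was the WT mouse nearest to the CKO mice. The means were -0.25 ± 0.12 in CKO mice and 0.10 ± 0.07 in WT mice (SD, n = 4 each). The difference was -0.34 (SE 0.14, limma unadjusted p = 0.0388, adjusted p = 0.724), which left 78.9% of WT signal. Here the 2 probes of the gene gave differences of the same sign, -0.34 at chr5:137813703-137813762 and -0.28 at chr5:137815646-137815705 (mm9, plus strand). The value was -0.40 within slide 2 and -0.20 within slide 3, and it ran from -0.38 to -0.29 with each array left out. Its ligand Efnb2 gave 0.22 (SE 0.18).

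Endothelial markers were examined beside these genes. Of 6 endothelial markers 4 lay below 0 in CKO mice, Pecam1 at -0.85 and Cdh5 at -0.63 among them, while Cldn5 gave 0.22 and Flt1 0.04. The median signal of the list ran from -2.43 to -1.61 in CKO mice, against -2.25 to -1.59 in WT mice, so the groups overlapped. Each of the 6 was above background on at least 6 arrays. Their part in the Plxnd1 and Ephb4 values was not tested. The arrays held RNA pulled down with tagged ribosomes, so cell number, RNA per cell and recovery in the pulldown cannot be told apart.

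**Figure D3:**
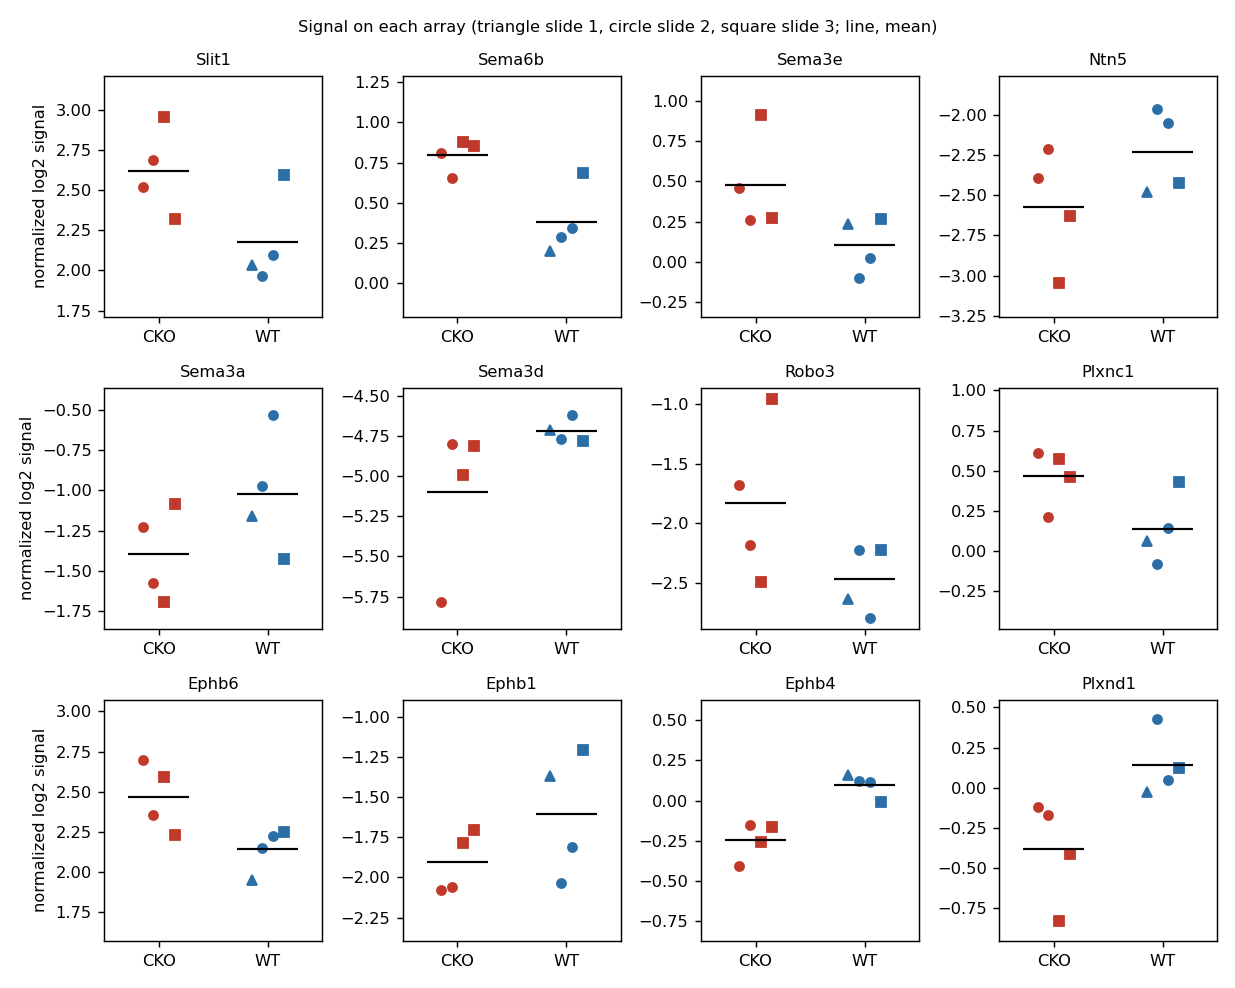
Normalized log2 signal on each of the 4 CKO arrays (red) and 4 WT arrays (blue) for the 3 genes with the smallest p among ligands and receptors in each direction. Horizontal lines are group means, marker shapes give the slide, and every panel has its own scale of at least 1.5 log2 units. The groups are separate for Sema3d, Ephb4 and Plxnd1 and overlap for the other 9 genes.

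The promoters of Ephb4 and Plxnd1 are shown because CKO and WT values of these receptors did not overlap, and because CTCF, whose gene carries the loxP sites, is named for the motif CCCTC. The sequences are the 250 bases before the annotated start, 5′ to 3′ on the strand of the gene, from RefSeq for GRCm38.p6. Ephb4 lies on the plus strand with this stretch at chr5:137349859-137350108, and Plxnd1 on the minus strand at chr6:115995006-115995255. Capitals mark CCCTC, or GAGGG for the other strand.
Ephb4: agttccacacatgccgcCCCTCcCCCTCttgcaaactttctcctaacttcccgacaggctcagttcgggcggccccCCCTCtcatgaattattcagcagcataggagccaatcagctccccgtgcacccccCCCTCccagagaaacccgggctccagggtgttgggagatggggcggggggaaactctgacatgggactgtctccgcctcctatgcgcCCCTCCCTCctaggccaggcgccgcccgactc
Plxnd1: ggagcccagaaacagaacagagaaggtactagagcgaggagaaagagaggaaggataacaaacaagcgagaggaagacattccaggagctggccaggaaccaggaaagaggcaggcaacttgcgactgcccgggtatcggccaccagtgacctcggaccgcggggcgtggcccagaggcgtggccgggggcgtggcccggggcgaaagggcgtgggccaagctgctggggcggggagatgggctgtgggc

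The Ephb4 stretch held CCCTC 6 times, the last 2 of them sharing a base, and the Plxnd1 stretch held it 0 times. Both stretches of Sema6b, which has 2 annotated starts, held it 1 time. RefSeq gave 75 promoters for 59 of the 69 guidance genes. Of these, 61 held CCCTC or GAGGG, which is 81.3%, where 60.5% of 32851 mouse promoters of the same length did. A longer pattern of the core CTCF site was found on either strand in 2 of 75, Epha1 and Plxna3. That is 2.67%, where 2.93% of all promoters held it. Epha1 had a difference of -0.17 (SE 0.26) and Plxna3 of -0.08 (SE 0.18). A match of letters is a description of sequence and not a site bound in these mice.

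Of all 9 plexins 5 lay above 0, with a median difference of 0.09. Plxnc1, the receptor of Sema7a, had 0.61, 0.21, 0.57 and 0.46 in CKO mice, against 0.06, -0.08, 0.14 and 0.43 in WT mice. CKO 2 and WT 4 lay within the range of the other group. The Plxnc1 difference was 0.33 (SE 0.17, limma adjusted p = 0.724), and its other probe gave 0.13. The neuropilins, which are co-receptors of the secreted semaphorins, gave 0.30 (SE 0.18) for Nrp2 and 0.15 (SE 0.33) for Nrp1. The 2 Nrp2 probes gave 0.30 and 0.32.

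Eph receptors went both ways, with 6 of 13 above 0 and a median of -0.04. Ephb6, which lacks kinase activity, had 2.70, 2.36, 2.59 and 2.23 in CKO mice, against 1.95, 2.15, 2.23 and 2.25 in WT mice. CKO 4 lay among the WT mice and the 3 other CKO mice above them. The Ephb6 difference was 0.32 (SE 0.17, limma adjusted p = 0.724), but a further probe of the gene gave -0.24 (SE 0.26). Ephb1, a receptor of B class ephrins, had -2.08, -2.06, -1.78 and -1.70 in CKO mice, against -1.37, -2.03, -1.81 and -1.21 in WT mice. The groups overlapped, with a difference of -0.30 (SE 0.22). Epha10, another member without kinase activity, was the lowest of the family at -0.38 (SE 0.30).

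Robos, the Unc5 family and Dcc lay above 0 throughout, 8 of 8 genes, also with median scaling, both quantile settings and the authors' values. Within slide 3 that was so for 1 of 3 Robos and 2 of 5 Unc5 and Dcc genes. Robo3, a divergent Robo that controls midline crossing of commissural axons, had -1.68, -2.18, -2.49 and -0.96 in CKO mice, against -2.64, -2.23, -2.79 and -2.22 in WT mice. CKO 4 stood far above the rest and CKO 3 lay within the WT range. Robo3 had the highest difference of all guidance genes, 0.64 (SE 0.32, limma adjusted p = 0.724), and it was 0.58 within slide 2 and 0.50 within slide 3. Without CKO 4 it was 0.35.

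Dcc, the netrin receptor, had nearly equal means of -0.04 ± 0.12 in CKO mice and -0.05 ± 0.06 in WT mice (SD, n = 4 each). The 95% interval of its difference ran from -0.32 to 0.32. Another probe that carries the Dcc name lies on chromosome 7, not on chromosome 18 with the gene, and was not used for it. Robo2, with a difference of 0.06 (SE 0.17), and Unc5c, with 0.01 (SE 0.18), lay at the low end of their families. Unc5b, a netrin receptor of repulsion, gave 0.30 (SE 0.35).

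**Figure D4:**
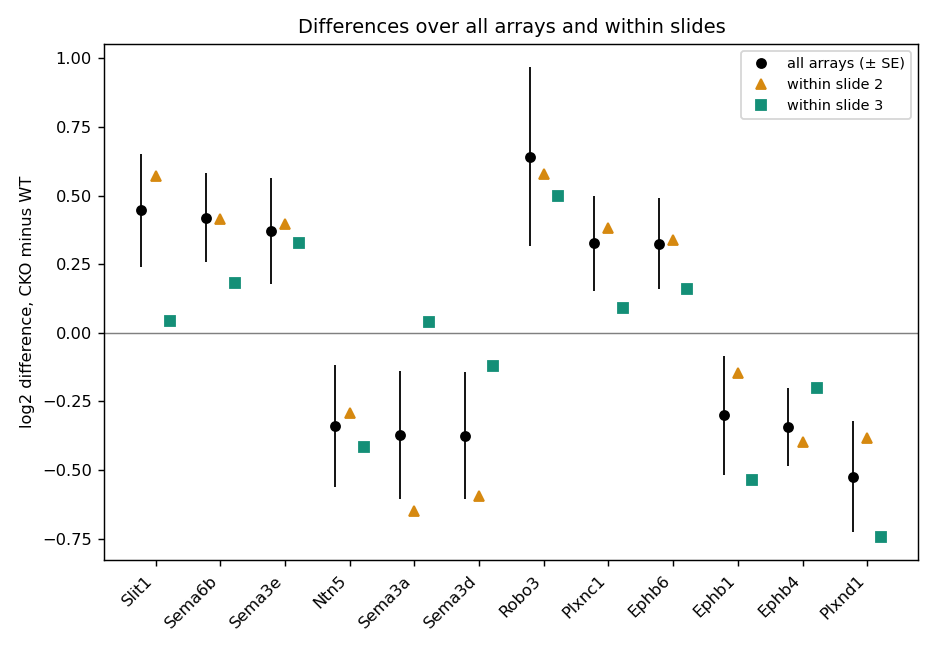
Log2 difference, CKO minus WT, of the same 12 genes over all arrays (black, bars of 1 SE), within slide 2 (triangles, 2 CKO and 2 WT arrays) and within slide 3 (squares, 2 CKO arrays and 1 WT array). Sema3a changes sign within slide 3 (0.04), Slit1 is 0.04 there, and the other 10 genes keep their sign.

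Probes of 1 gene often differed from each other. Of 20 guidance genes with more than 1 probe past the filter, 9 had probes with differences of opposite sign. These were Plxnd1, Ephb6, Epha7, Efna3, Efnb2, Sema5b, Sema6c, Sema6d and Unc5c. Among these 9 genes the widest gaps were in Plxnd1 (-0.52 and 0.03), Ephb6 (-0.24 and 0.32), Sema6c (-0.34 and 0.19) and Sema5b (-0.25 and 0.24). The 2 Ntn1 probes, at -0.66 and -0.04, lay further apart still, with the same sign. Each gene was represented by its brightest probe.

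That choice fell on probes with a tandem repeat in 4 guidance genes, Sema4c, Ephb3, Epha5 and Sema6d. Their repeat stretches are shown because such probes were brighter than most others on the array. Each is a 30-base part of the 60-base probe, 5′ to 3′, with the repeated unit in capitals as far as it lies in the part shown.
Sema4c: aaTGTGTGTGTGTGTGTGTGTGTGttgtaa
Ephb3: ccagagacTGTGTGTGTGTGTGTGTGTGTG
Epha5: atcgaaatTGTGTGTGTGTGTGTGTGTGcg
Sema6d: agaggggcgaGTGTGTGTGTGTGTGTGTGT

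In mm9 these probes lie at chr1:36605998-36606057 (Sema4c, minus strand), chr16:21223165-21223224 (Ephb3, plus), chr5:84487348-84487407 (Epha5, minus) and chr2:124491609-124491668 (Sema6d, plus). The runs span 22 bases in Sema4c, 32 in Ephb3 and 20 in both Epha5 and Sema6d. On the whole array 212 probes held a run of at least 16 bases of a unit of 1 to 3 bases. Their median normalized log2 signal was 5.62, where the other 55451 probes had -2.18, and 99.1% of them were well above background on all 8 arrays, where 69.5% of the others were. Whether this signal came from the gene's own transcript was not tested.

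**Figure D5:**
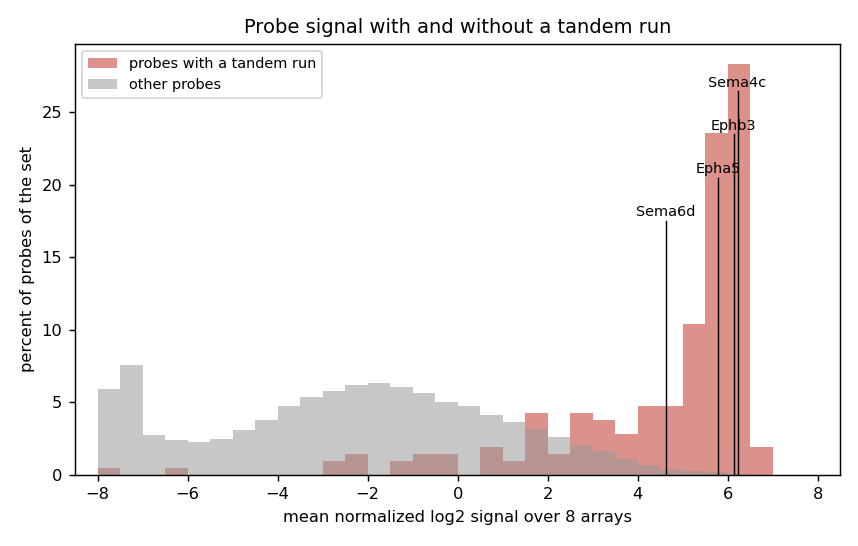
Share of probes by mean normalized log2 signal over 8 arrays, for the 212 probes with a tandem run (red) and the 55451 others (grey). Vertical lines mark the probes of Sema6d, Epha5, Ephb3 and Sema4c, which lie among the bright tandem probes; the medians of the sets are 5.62 and -2.18.

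Over the 8 arrays, as a description, signals of the Ephb3 and Epha5 probes had a Pearson r of 0.90, Sema4c and Ephb3 of 0.83, and Sema4c and Epha5 of 0.78. The points share the arrays and their scaling. Sema6d had an r of -0.13 with Sema4c, 0.32 with Ephb3 and 0.48 with Epha5. All 4 differences were small, from -0.18 (Sema6d) to 0.14 (Sema4c). Epha5 and Sema6d have a further probe without a run. For Epha5 it was much dimmer, at -0.82 where the repeat probe had 5.79, and gave -0.01 in place of -0.04. For Sema6d it gave 0.21 in place of -0.18. Sema4c and Ephb3 had no other probe past the filter.

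Genes that act with these receptors were given by 2 lists. Of 46 effectors, which carry the signal to the cytoskeleton, 44 were tested and 0 passed the adjusted p in limma. The effectors had 35 of 44 genes above 0 and a median of 0.15, where 41.5% of all genes lay above 0. With quantile normalization these were 31 of 44 and 0.10, where 48.6% of all genes did. Their median signal was bright, from 1.36 to 1.72 in CKO arrays and from 1.30 to 1.66 in WT arrays. Bright genes lay higher over all genes too, and the part of signal strength was not tested. At an unadjusted p under 0.05 there was 1 of 44 effectors, where 5.3% of all genes passed. It was Rock1, a kinase downstream of RhoA. Rock1 had -7.27, -7.29, -7.37 and -3.61 in CKO mice, against -3.60, -4.35, -4.42 and -5.11 in WT mice. CKO 4 lay at the level of the brightest WT mouse, and the other CKO mice lay far down, near the lowest signals of the array. The difference was -2.02 (SE 0.81, limma adjusted p = 0.724). It moved with the background correction and between slides. For Rock1 it was -1.84 with quantile normalization, -0.19 with normexp and quantile normalization, and -0.52 in the authors' deposited values. The Rock1 difference was -2.90 within slide 2 and -0.38 within slide 3, and the gene was not among those well above background on all 8 arrays. Rnd1, a small GTPase that binds plexins, gave -0.40 (SE 0.20).

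The 28 other cues and receptors were all tested, with 0 past the adjusted p in limma. Of these, 18 lay above 0, with a median of 0.07, where 41.5% of all genes lay above 0. Ptprs, a receptor phosphatase for chondroitin sulfate proteoglycans, had 4.65, 4.74, 5.21 and 4.80 in CKO mice, against 4.27, 4.43, 4.54 and 4.43 in WT mice. The groups did not overlap, and the difference was 0.43 (SE 0.17, limma unadjusted p = 0.0321, adjusted p = 0.724). Over all genes 3.32% had no overlap and 5.3% had an unadjusted p under 0.05. The Ptprs difference was 0.33 with quantile normalization, 0.28 in the authors' values and 0.15 with the mean of its probes. Within slide 2 it was 0.21 and within slide 3 it was 0.58. Cdon, a cell surface co-receptor of Hedgehog ligands, gave 0.65 (SE 0.30) with overlapping groups.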

How the data were processed

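Ribosome-bound RNA was immunoprecipitated through the haemagglutinin tag, put through whole transcriptome amplification and given a Cy5 label, per the labels' protocols. The spot intensity values were made by the authors with Agilent Feature Extraction (version 11.5, per the submitters' processing notes) and are background-subtracted and detrended, per the file headers, which give mm9 coordinates. The authors also deposited a table of intensity values for the same arrays, whose centring is not given in the sources used here. It was used as an alternative.

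Control spots and outlier flags were left out, and 0 spots were saturated. Spots of 1 probe were averaged as log2 values. Each array's 75th percentile over 55663 probes measured on all arrays was subtracted. Probes well above background on at least 4 arrays were kept (44316), and the brightest probe stood for its gene. Names came from RefSeq for 28331 probes by accession (91 of the 96 guidance probes) and otherwise from the files. A Dcc probe placed on another chromosome could not stand for Dcc.

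The fit used limma's lmFit and eBayes (version 3.58.1, R 4.3.3; two-sided) on all 29529 genes, with Benjamini-Hochberg adjustment and a threshold of 0.05. Values are given with an exact permutation test over 35 splits where stated. The fit was tested on simulated data. The mice are labelled as biological replicates.

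Named genes are those with an unadjusted p under 0.05, the 3 with the smallest p among ligands and receptors in each direction, those whose groups do not overlap, those with probes of opposite sign, those below the filter, the highest and lowest of each family, and 2 of each list of further pathway genes. Others were named after their values were seen. The members and lists were chosen with earlier results of these data known. Replicate numbers were not used to pair the mice in the main fit. Deviations of same-numbered arrays had correlations of -0.32, 0.39, -0.42 and 0.07 for replicates 1 to 4. Only replicates 2 and 4 had their CKO and WT arrays on the same slide, so these correlations cannot decide whether the mice were paired. Alternatives were other scalings and background corrections, filters, probe rules, slide, sex and replicate blocks, and leaving out each array. Leaving out probes with tandem repeats was chosen after seeing the data.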

Additional observations from a re-analysis of the deposited data

Results flagged for a closer look

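Among 64 groups of 4 arrays examined for guidance genes, 6 had an array that stood apart from the 3 others by Dixon's test at 95%, and chance flags about 1 in 20 groups. In CKO mice, Efna2 had 0.36 on CKO 3, where the others ran from -0.45 to -0.34, and Efna3 had 3.24 on the same array, where the others ran from 2.67 to 2.76. Unc5b had -3.73 on CKO 1, where the other CKO mice ran from -2.51 to -2.25. In WT mice, WT 4 stood apart in 3 genes. Robo2 had 0.87 there, with 0.36 to 0.40 on the others, Sema6c had 1.53, with 1.29 to 1.32, and Unc5c had 0.24, with -0.26 to -0.19. All values are normalized log2 signal. CKO 3 and WT 4 lay on slide 3, and the part of the slide in these values was not tested.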

How the results depend on the processing

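None of the named guidance genes passed an adjusted p of 0.05 in limma under any of the 22 alternatives, where the smallest adjusted p was 0.363 (without WT 4). The ligand and receptor medians were 0.23 and 0.20 with median scaling. With each array left out, the ligand median ran from -0.036 to 0.11, the receptor median from 0.0093 to 0.15, guidance genes past the adjusted p from 0 to 0, guidance genes at an unadjusted p under 0.05 from 0 to 6, and all genes past the adjusted p from 0 to 2. Guidance genes at an unadjusted p under 0.05 numbered 6 with normexp and quantile normalization, where 4.8% of all genes passed. There was 1 with the mean of a gene's probes and 1 within slide 2, counts not set against a share of all genes. All genes past the adjusted p numbered 0 with quantile normalization, in the authors' values and within slide 2, 4 with normexp and quantile normalization, 2 without a filter, 5 with probes well above background on all 8 arrays, 13 with the slide as a random block and 3 with sex as a covariate. With the replicate number as a block 0 genes passed. There 2 guidance genes had an unadjusted p under 0.05 (Plxnd1 and Robo3), also not set against a share of all genes. The following differences turned sign. Efna3 had -0.051 with quantile normalization, -0.050 with normexp and quantile normalization, -0.11 in the authors' values, -0.083 within slide 2, -0.053 within slide 3 and -0.071 with a slide block. Sema3d had 0.19, 0.039 and 0.15 with the first 3 of these settings. Epha7 had -0.028 in the authors' values and -0.019 within slide 3. With the mean of probes Sema5b had 0.0086, Sema6c -0.074, Sema6d 0.012 and Unc5c -0.097. With the slide as a block Dcc had -0.0059, Nrp1 -0.0085 and Unc5c -0.086, and as a random block Unc5c had -0.044. Within slide 2 Unc5c had -0.016. Within slide 3 Dcc had -0.15, Nrp1 -0.073, Robo2 -0.36, Sema3a 0.039, Sema6c -0.021, Sema6d 0.013, Slit2 -0.094 and Unc5c -0.19. Sema6d had 0.21 without tandem repeat probes. With each array left out, Dcc ran from -0.041 to 0.050, Efna3 from -0.049 to 0.17, Nrp1 from -0.062 to 0.38 and Unc5c from -0.065 to 0.12. The cause of these changes was not tested. Ephb4, Sema6b and 16 other named genes kept their sign under all alternatives. With 4 mice in a group and dim signal for genes such as Sema3d, small differences could not be told from the spread.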

Other observations

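Markers of other cell types were measured on the same arrays. All 4 choroid plexus markers tested lay above 0, with a median difference of 0.61, and Ttr, the transthyretin of that epithelium, had the highest at 1.16 (SE 0.36, limma adjusted p = 0.724). The median signal of these 4 genes ran from -0.75 to -0.45 in CKO mice, against -1.04 to -0.81 in WT mice, without overlap. The 6 oligodendrocyte markers had a median difference of 0.14, and their median signal ran from 1.14 to 1.63 in CKO mice, against 0.93 to 1.07 in WT mice. Median differences were 0.26 for excitatory neuron, 0.15 for interneuron, 0.32 for astrocyte and 0.065 for microglia markers, and the array medians of these 4 lists overlapped between the groups. None of these markers passed an adjusted p of 0.05 in limma, and their part in the values of the guidance genes was not tested. Gja1 and Aqp1 were well above background on 0 arrays.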
